A study of Mus musculus with 4 samples.

Results

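Broad domains of H3K79me2 are the subject here: the peaks of 1000 bp or more in the lists called from H3K79me2 ChIP-seq of bone marrow-derived dendritic cells (BMDCs). They were chosen by their width in the deposited broad lists, so no width below is tested, and they were 1180 of 11926 peaks in the PBS list and 835 of 9805 in the lysine list, 2015 of 21731 in all. BMDCs are antigen-presenting cells grown from bone marrow, here from C57BL/6J mice, and both groups share strain, tissue and medium. One culture received PBS, for which the labels give no time, and the other 18 mM lysine for 6 h. Each condition has 1 H3K79me2 library and 1 input library, and the inputs are not analysed here. With 1 library per condition there is no replicate check and no test of the treatment. Differences below are between 2 peak lists, the depth of the libraries is unknown, and its part in any of them was not tested. Intervals in parentheses are exact binomial ones at 95% (Clopper-Pearson), which hold counting error alone. All positions refer to GRCm38.

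H3K79 lies in the globular core of histone H3, and Dot1l is the enzyme known to methylate it. Dot1l works with elongation factors such as Aff1, Aff4, Ell and the Mllt family, and the mark is known from the first part of transcribed genes, downstream of the start. The mark is known to go with active transcription.

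The sequences below are the 250 bases before an annotated start of 6 genes, each start lying under a domain. A coding gene can have more than 1 annotated start. For Il3ra (gene from 14345912, plus strand) and Kansl1 (gene up to 104469508, minus strand) the start used lies inside the gene. They show starts that lie under domains, with each CG in capitals, 5′ to 3′ on the strand of the gene. Each was taken from the widest domain in its class that held the start of a coding gene of known strand, the classes being explained further on. The sequences are RefSeq's, on GRCm38.p6.

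Junb, chr8:84978749-84978998, minus strand, PBS domain with a wide lysine partner: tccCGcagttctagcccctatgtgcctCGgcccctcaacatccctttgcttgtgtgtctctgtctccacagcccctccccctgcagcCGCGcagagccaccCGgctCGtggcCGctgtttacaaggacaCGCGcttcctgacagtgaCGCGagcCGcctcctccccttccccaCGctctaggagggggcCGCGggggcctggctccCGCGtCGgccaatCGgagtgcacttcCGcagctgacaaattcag
Il3ra, chr14:14346245-14346494, plus strand, PBS domain met by several short lysine peaks: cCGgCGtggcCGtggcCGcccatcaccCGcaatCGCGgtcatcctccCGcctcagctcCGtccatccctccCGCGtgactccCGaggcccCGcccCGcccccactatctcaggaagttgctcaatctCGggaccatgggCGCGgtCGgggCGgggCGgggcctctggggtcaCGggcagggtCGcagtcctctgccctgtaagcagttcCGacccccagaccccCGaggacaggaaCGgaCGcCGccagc
Sqstm1, chr11:50210821-50211070, minus strand, PBS domain met by 1 short lysine peak: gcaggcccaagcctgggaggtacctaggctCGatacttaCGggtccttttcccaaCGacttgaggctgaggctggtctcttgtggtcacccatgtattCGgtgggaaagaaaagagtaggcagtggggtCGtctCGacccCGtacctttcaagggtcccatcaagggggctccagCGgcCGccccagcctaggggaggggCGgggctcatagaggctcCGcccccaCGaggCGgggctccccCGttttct
Creb1, chr1:64532554-64532803, plus strand, PBS domain without a lysine peak: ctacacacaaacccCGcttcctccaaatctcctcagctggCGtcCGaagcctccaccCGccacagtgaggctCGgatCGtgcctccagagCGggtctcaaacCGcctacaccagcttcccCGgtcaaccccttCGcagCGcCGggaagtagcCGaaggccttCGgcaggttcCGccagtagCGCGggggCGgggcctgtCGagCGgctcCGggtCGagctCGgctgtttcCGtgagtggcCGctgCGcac
Klf6, chr13:5861239-5861488, plus strand, lysine domain with a wide PBS partner: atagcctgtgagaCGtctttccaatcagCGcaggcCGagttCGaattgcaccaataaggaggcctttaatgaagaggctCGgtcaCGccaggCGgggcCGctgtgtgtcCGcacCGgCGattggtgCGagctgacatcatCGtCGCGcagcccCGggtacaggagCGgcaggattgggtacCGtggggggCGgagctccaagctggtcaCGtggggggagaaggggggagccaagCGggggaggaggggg
Kansl1, chr11:104442321-104442570, minus strand, lysine domain met by 1 short PBS peak: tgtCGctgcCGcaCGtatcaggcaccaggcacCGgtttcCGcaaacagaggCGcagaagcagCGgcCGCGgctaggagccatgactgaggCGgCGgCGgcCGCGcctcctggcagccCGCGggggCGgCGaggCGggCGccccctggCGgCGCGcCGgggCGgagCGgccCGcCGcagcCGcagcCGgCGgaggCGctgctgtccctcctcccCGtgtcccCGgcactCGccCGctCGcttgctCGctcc

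CG counts in these 250 bases were 20 for Junb, 27 for Il3ra, 14 for Sqstm1, 26 for Creb1, 21 for Klf6 and 38 for Kansl1. Junb encodes an AP-1 subunit, Il3ra the alpha chain of the interleukin-3 receptor, Sqstm1 the autophagy receptor p62 and Creb1 a cAMP-responsive transcription factor. Klf6 is a zinc finger transcription factor and Kansl1 a scaffold of a histone acetyltransferase complex.

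Most domains were only a little wider than the threshold. The median width was 1361.5 bp in PBS (quartiles 1178 and 1621 bp) and 1363 bp in lysine (1149.5 and 1631 bp). Of the PBS domains 420 reached 1500 bp, 109 reached 2000 bp and 17 reached 3000 bp. In lysine these numbers were 291, 77 and 13. Domains were 9.89% of the PBS peaks and held 25.7% of the peak length, and in lysine 8.52% and 22.6%. Just inside the threshold in PBS lay a 1000 bp peak over Ptk2, a focal adhesion kinase, and 2 peaks of 1001 bp outside genes. Just outside it lay 999 bp over Exd1 with Chp1, 998 bp over Shld2 with Glud1, and 998 bp outside genes. In lysine the nearest inside were over Rpl30 (1000 bp), Poldip3 (1001 bp) and Mtmr14 (1001 bp), and the nearest outside over Dcun1d3 with Lyrm1 (999 bp), Oxsm (998 bp) and Poli (998 bp). Domains and shorter peaks were alike in strength. The authors' fold enrichment, a ratio to local background, had a median of 4.46 over PBS domains and 4.52 over shorter PBS peaks, and of 4.39 and 4.49 in lysine. Median −log10 q was 3.94 and 4.04 in PBS and 3.68 and 3.86 in lysine.

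**Figure D1:**
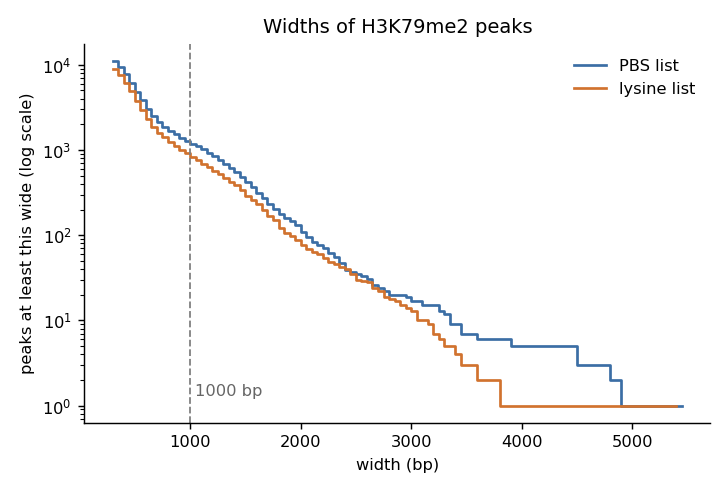
Number of peaks (vertical axis, log scale) at least as wide as the width on the horizontal axis (bp), in the PBS and the lysine list. The dashed line marks 1000 bp, where the PBS list holds 1180 peaks and the lysine list 835.

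The ribosomal RNA locus Rn18s-rs5 had the widest domain of both lists. In PBS the 10 widest were those over Rn18s-rs5 with AY036118 (5482 bp), Malat1 (4860 bp), Ier2 (4758 bp), Junb (4467 bp), Il3ra (4457 bp), Pxn with Sirt4 (3883 bp), Srgn (3568 bp), Gm20783 with LOC108167694 (3424 bp), Nlrp3 (3415 bp) and Ap3m2 (3336 bp). Pxn encodes paxillin of focal adhesions, Srgn the granule proteoglycan serglycin, and Nlrp3 the sensor of an inflammasome. In lysine the same rule gave Rn18s-rs5 (5435 bp), Klf6 (3751 bp), a place on chromosome 9 outside genes (3568 bp), Ier2 (3408 bp), Kansl1 (3370 bp), Kdm6b (3297 bp), Snx30 (3203 bp), another place on chromosome 9 (3175 bp), Per1 (3163 bp) and Necap1 (3148 bp). Kdm6b encodes an H3K27 demethylase, Per1 a clock protein and Necap1 a factor of clathrin-mediated endocytosis. The domains with the highest −log10 q included Rn18s-rs5, the widest, in both lists, and the others were between 1047 and 1704 bp wide. In PBS they lay over Canx (35.5, 1192 bp), Arrdc4 (33.9, 1455 bp), Arid4a (32.3, 1508 bp), Atp2b1 (27.4, 1047 bp) and Rn18s-rs5 (25.9). In lysine they lay over Rn18s-rs5 (29.9), Arrdc4 (25.3, 1585 bp), 1810013L24Rik (20.9, 1572 bp), Pip5k1c (20.6, 1212 bp) and Ankrd11 (20.2, 1704 bp). Canx encodes the endoplasmic reticulum chaperone calnexin and Atp2b1 a calcium pump of the plasma membrane. These −log10 q values rank peaks within their own list.

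Each domain was then set against the other list at the same place, with an overlap of at least 1 bp. A partner of 1000 bp or more makes the class wide, 2 or more peaks all under 1000 bp make it several short, a single peak under 1000 bp makes it one short, and no overlap makes it none. Of the 1180 PBS domains 432 (36.6%, interval 33.9 to 39.4) had a wide lysine partner, against 6.38% of PBS peaks of any width. One short lysine peak met 492 (41.7%, 38.9 to 44.6; any width 55.4%), several short peaks met 13 (1.1%, 0.588 to 1.88; any width 0.109%), and none met 243 (20.6%, 18.3 to 23.01; any width 38.1%). Of the 835 lysine domains 431 (51.6%, 48.2 to 55.1) had a wide PBS partner, against 9.71% of lysine peaks of any width. One short PBS peak met 308 (36.9%, 33.6 to 40.3; any width 65.5%), several short peaks met 7 (0.838%, 0.338 to 1.72; any width 0.0714%), and none met 89 (10.7%, 8.65 to 12.95; any width 24.7%). Any partner was found for 937 PBS domains (79.4%; any width 61.9%, under 1 kb 60%) and 746 lysine domains (89.3%; any width 75.3%, under 1 kb 74%). With the 9805 strongest peaks of each list, 13.7% of PBS and 18.6% of lysine domains had no partner, the other order. That step cuts the PBS list alone, so it takes away weaker PBS domains and PBS partners of lysine domains by construction. Where −log10 q had to reach 5 in both lists, the shares were 33.7% and 17.0%, the order of the full lists. A domain was met by 1 short peak far more often than by several.

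Several short partners had little room to occur. Neighbouring peaks within a list lay at least 1105 bp apart in PBS and 1096 bp in lysine, so the lists as deposited hold no closer peaks. No domain of either list had more than 2 partners. Among peaks under 1 kb, 3.06% of PBS and 5.81% of lysine peaks met a domain of the other list, 56.9% and 68.2% met 1 short peak, 0 and 0 met several, and 40% and 26% met none. In the wide class, 429 of 432 PBS domains and 423 of 431 lysine domains had exactly 1 partner peak. A single lysine domain met 2 wide PBS domains.

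Wider domains more often had a wide partner, and domains of higher −log10 q more often had any partner. In PBS the share with a wide partner went from 25.7% of the 416 narrowest domains through 35.8%, 46.3% and 47.8% of 3 wider classes to 82.4% of the 17 domains of 3000 bp or more. In lysine the same 5 width classes gave 39.7%, 53.7%, 58.4%, 73.4% and 84.6%. The share without any partner went from 26.7% to 5.88% in PBS and from 15.8% to 0 of 13 in lysine, which allows a share of up to 23.1% (3 counts of the total). By −log10 q, 55.7% of the 106 PBS domains under 2 had no lysine partner, 40.6% of those from 2 to 3, 17.7% from 3 to 5, 2.52% from 5 to 10 and 0 of 89 from 10 upward, which allows up to 3.37%. In lysine the shares were 32.2%, 15.6%, 6.32%, 1.87% and 0 of 51, which allows up to 5.88%. At like −log10 q a domain met the other list more often than a shorter peak did. From 3 to 5 it was 82.3% against 54.5% in PBS and 93.7% against 74.5% in lysine. A wider region has more room to overlap, and the part of width in this was not tested.

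**Figure D2:**
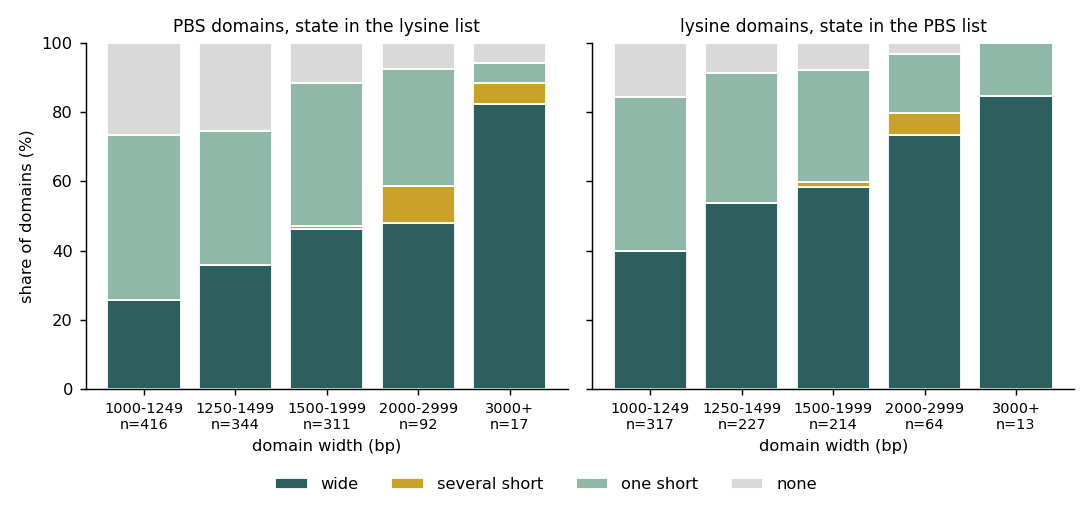
Share of domains (vertical axis, percent) in each class of the other list, by domain width (horizontal axis, bp, with the number of domains), for PBS domains on the left and lysine domains on the right. The dark lower part, a wide partner, goes from 25.7% to 82.4% in PBS and from 39.7% to 84.6% in lysine, and no domain under 1500 bp was met by several short peaks.

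Where both lists held 1 domain at a place, their extents were close. There were 420 such pairs, 247 wider in PBS, 171 wider in lysine and 2 equal, and their overlap took a median 85.6% of their joint span. Median widths were 1474 bp (PBS) and 1418.5 bp (lysine), and the lysine width less the PBS width had a median that stood at -49 bp, with quartiles of -185 and 123 bp. In 249 pairs the widths differed by at most 200 bp, and in 16 by 1000 bp or more. In the 203 pairs that held starts of a single strand, the median shift of the edge was 80 bp on the upstream side and 102 bp on the downstream side. Widest by comparison in PBS were the pairs at Nlrp3 (3415 bp in PBS and 1627 bp in lysine), the second Il3ra domain (3085 and 1408 bp), Ier2 (4758 and 3408 bp), Sart3 with Iscu (2406 and 1088 bp) and a place on chromosome 17 outside genes (3335 and 2028 bp). Widest by comparison in lysine were those at Mus81 (1280 and 2928 bp), a nuclease gene of DNA repair, Tnrc6b (1064 and 2600 bp), a partner of Argonaute, a place on chromosome 13 outside genes (1185 and 2425 bp), Necap1 (1948 and 3148 bp) and Ccng2 (1400 and 2463 bp), a cyclin. These pairs were chosen for their difference, which is a description.

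**Figure D3:**
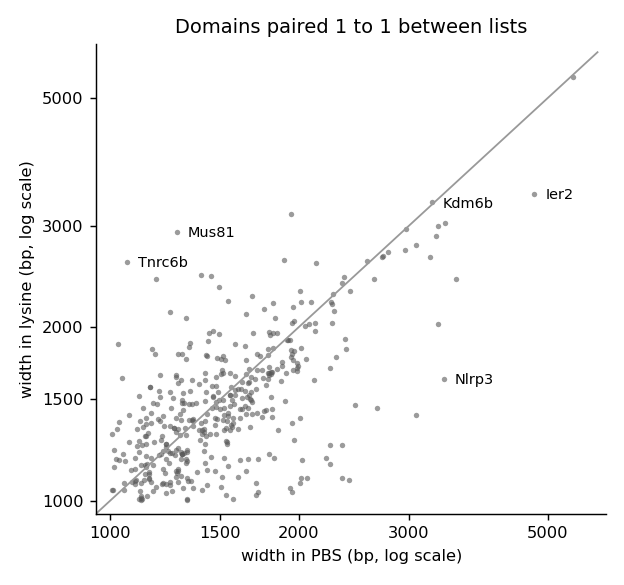
Width of a domain in PBS (horizontal axis, bp, log scale) and in lysine (vertical axis, bp, log scale), 1 point for each of the 420 pairs, with the line of equal width. Points lie on both sides of the line, 247 below it and 171 above.

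Where the other list held 1 short peak and the domain a single core, the peak mostly met that core. MACS2 gapped lists give narrow blocks, the stronger stretches inside a broad region. A block counted as met at an overlap of 1 bp. Blocks took a median 42.4% of the width of a domain in PBS and 43.2% in lysine. How often a peak placed anywhere in a domain would meet a block was not tested. PBS domains held 1381 blocks, of which lysine peaks met 1050 (76.0%), and lysine domains held 973, of which PBS peaks met 842 (86.5%). Of the PBS domains 125 had no block, 741 had 1 and 314 had 2 or more, and of the lysine domains 95, 514 and 226. Among one short PBS domains with a single block, the lysine peak met that block in 356 of 374 (95.2%), and in lysine the PBS peak did so in 217 of 232 (93.5%). With 2 or more blocks it met all of them in 7 of 81 PBS domains and some in 73, and in 3 and 37 of 41 lysine domains, so most often a core was left out. With its partner under 1000 bp by definition, the one short class leaves little room to meet 2 blocks. In that class 62.2% of the block length and 11.5% of the remaining length of PBS domains were covered by lysine peaks, and 67.3% and 11.2% of lysine domains by PBS peaks. With a wide partner the 2 kinds of length were covered alike, 86.5% and 84.0% in PBS and 88.4% and 87.1% in lysine. The one short partner had a median width of 496 bp in lysine and 539 bp in PBS. In only 38 and 30 cases was it 900 bp or more, so near misses of the threshold were few.

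All 13 PBS domains met by several short lysine peaks, and all 7 lysine domains met by several short PBS peaks, had every narrow block met. Of these domains Myc, Emp1 and Pim1 in PBS and Rab1a and Gm40645 in lysine held a single block, and the others 2. Il3ra had 2. In PBS a peak of 4457 bp (chr14:14345598-14350054) spanned the gene's start, with a block at each end, and in lysine 2 peaks of 886 and 683 bp stood at those ends. The other PBS places of this kind were St3gal1 (2782 bp in PBS against 480 and 348 bp in lysine), a sialyltransferase, Gm19705 (2633 bp against 477 and 468 bp), the nuclear receptor Nr4a3 (2563 bp against 834 and 474 bp), Myc (2508 bp against 584 and 307 bp), the zinc finger factor Klf10 (2228 bp against 747 and 464 bp), 0610040F04Rik, Zc3h10 with Rpl41, Bcl2l11 with Acoxl, Emp1, Arid3a, the kinase Pim1 (1736 bp against 777 and 333 bp) and a place on chromosome 6 outside genes. Bcl2l11 encodes the pro-apoptotic protein Bim, and its PBS domain of 2089 bp stood against lysine peaks of 609 and 455 bp. In lysine the genes were Rrbp1 (2071 bp in lysine against 560 and 539 bp in PBS), the myosin Myo1c (2033 bp against 483 and 458 bp), Rab1a (1849 bp against 557 and 282 bp), a GTPase of transport from the endoplasmic reticulum, and Gm40645 (1826 bp against 512 and 365 bp), with 3 more places outside genes. Of the Nr4a3 domain 116 bp lay over the gene, and of the Myc domain 492 bp. Domains of this class beyond the 5 widest of each list were named after their values were seen.

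**Figure D4:**
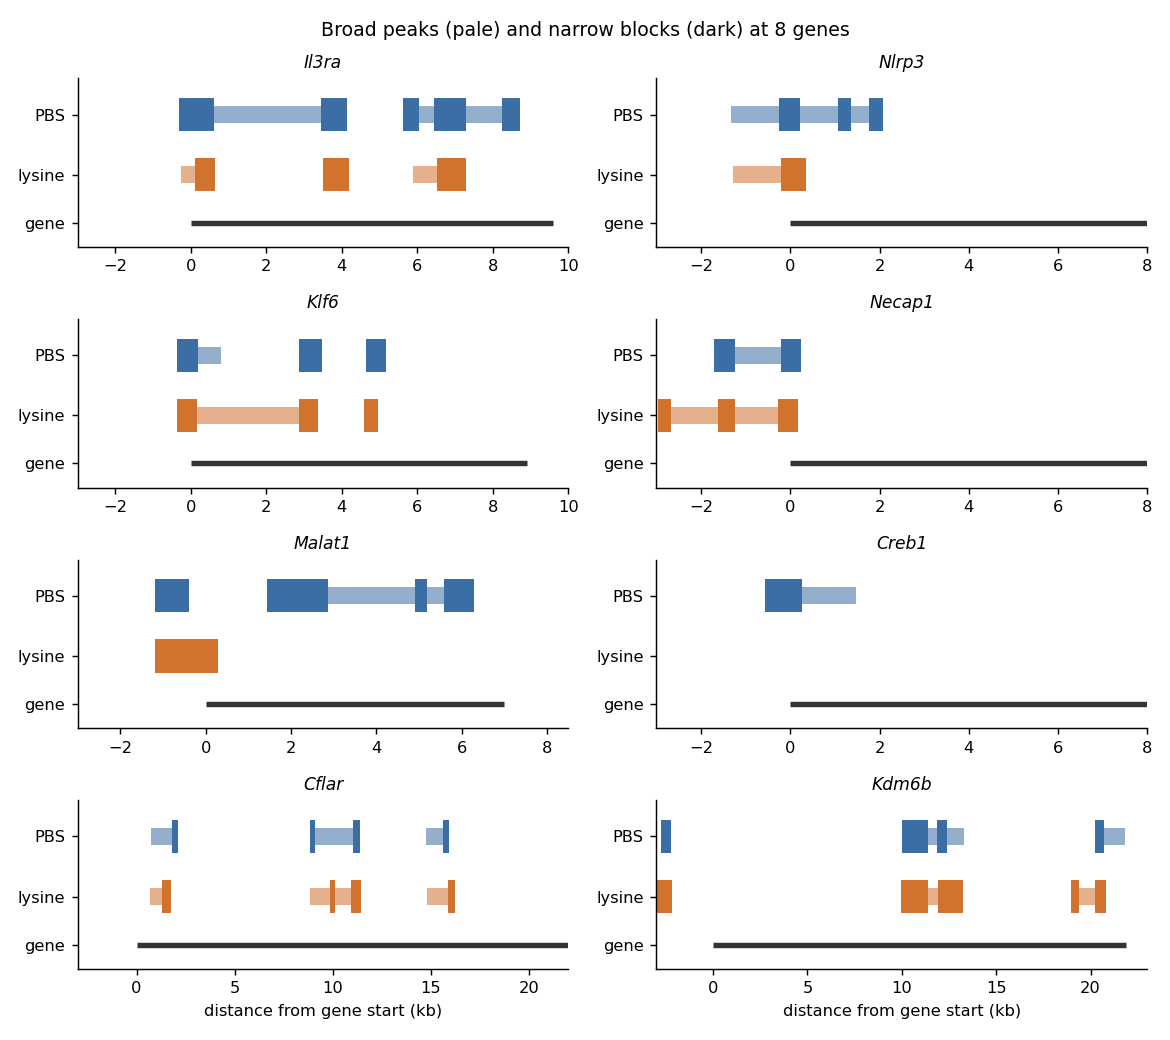
Peaks at 8 genes: broad peaks as pale bars and narrow blocks as dark bars, PBS above lysine, with the gene as a black line; the horizontal axis is distance from the annotated start of the gene in kb, along its strand. Il3ra has 1 PBS peak of 4457 bp over 2 lysine peaks of 886 and 683 bp, Klf6 has 1 lysine peak of 3751 bp over PBS peaks of 1175 and 607 bp, Creb1 has no lysine peak, and Cflar and Kdm6b have domains in both lists.

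Klf6 in lysine was laid out much like Il3ra in PBS, but its class is wide, since 1 of its PBS partners reached 1000 bp. Its lysine domain of 3751 bp (chr13:5861108-5864858) stood over PBS peaks of 1175 and 607 bp, and its narrow blocks lay at both ends, over the PBS blocks. Among domains met by 1 short peak, the widest in PBS were over Sqstm1 (3211 bp against 523 bp in lysine), Dhdds (2653 bp against 395 bp), Nsd3 (2630 bp against 328 bp), Clasp2 (2625 bp against 288 bp) and Socs2 (2532 bp against 935 bp). Nsd3 encodes a histone methyltransferase, Clasp2 a microtubule-binding protein and Socs2 a suppressor of cytokine signalling. In lysine they included a place on chromosome 9 (3568 bp against 303 bp in PBS), Kansl1 (3370 bp against 418 bp), the phosphatase gene Ppm1d (2484 bp against 510 bp) and Zmiz1 (2466 bp against 291 bp). At Zmiz1 the short PBS peak covered 1.46% of the lysine domain.

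Domains without any partner were the weakest of their list. Their median −log10 q was 2.49 in PBS and 2.1 in lysine, against 4.59 and 4.11 for domains with a wide partner, and their median fold was 3.85 and 3.73. The highest −log10 q among them was 7.08 in PBS and 9.12 in lysine. They did not lie just beside a peak of the other list: 3 of 243 in PBS and 2 of 89 in lysine had one within 1 kb, and the median distance was 24484 bp and 24795 bp. The widest in PBS were over Malat1 (4860 bp, chr19:5796384-5801243), a nuclear long non-coding RNA, H2-Ab1 (2602 bp, chr17:34263067-34265668), which encodes an MHC class II beta chain, the transcriptional repressor Bcl6 (2226 bp), a place on chromosome 11 outside genes (2080 bp) and the sorting nexin Snx10 (2072 bp). All but Malat1, at 3.98, had a −log10 q between 2.35 and 2.49. At Malat1 the lysine list did hold a domain, of 1482 bp, but it spanned the start of the gene and covered only the first 296 bp of it, and a PBS peak of 801 bp lay wholly before the start. Creb1 (2036 bp) had the widest PBS domain of this class that held the start of a coding gene of known strand. In lysine the widest were over Tspoap1 (2406 bp), Ankrd10 (2337 bp), Tlcd1 with Nek8 (1898 bp), Sipa1l1 (1836 bp) and a place on chromosome 6 (1800 bp), with −log10 q between 1.39 and 3.19.

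Domains lay on coding genes and around their starts. Of the PBS domains 920 (78.0%, interval 75.5 to 80.3) overlapped a coding gene, compared with 71.6% (70.7 to 72.4) of shorter PBS peaks. In lysine it was 665 (79.6%, 76.7 to 82.3) and 73.5% (72.6 to 74.4). A non-coding gene alone was overlapped by 87 PBS and 57 lysine domains, and no gene by 173 and 113. The strand was known for 17492 of 21900 coding genes. Over such genes 543 of 743 PBS domains (73.1%, 69.7 to 76.2) and 424 of 547 lysine domains (77.5%, 73.8 to 80.9) held a gene start. Of shorter peaks 55.9% (54.6 to 57.1) in PBS and 62.9% (61.6 to 64.2) in lysine did. A wider region has more room to hold a start. Of domains without a start, 66 of 200 in PBS and 20 of 123 in lysine had their midpoint more than 20000 bp downstream of the nearest start of the gene.

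The reach of domains around a start is bound to exceed that of shorter peaks, since width chose them, and is given as a description. Around starts with no opposite start within 2000 bp, 399 PBS domains reached a median 459 bp upstream and 843 bp downstream, and 61.9% reached further downstream than upstream. The 301 lysine domains reached 496 and 791 bp, 59.5% further downstream. Shorter peaks reached 280 and 185 bp in PBS and 273.5 and 183 bp in lysine, with 31.3% and 32.0% further downstream, so they sat about the start and slightly before it. Over 764 such starts with a domain within 4000 bp upstream to 8000 bp downstream in either list, the bin centred 100 bp downstream was under a PBS domain in 47.9% and a lysine domain in 35.2%. At 900 bp downstream it was 26.4% and 18.8%, at 700 bp upstream 23.7% and 18.6%, and at 2100 bp downstream 3.66% and 1.96%. PBS domains without a lysine partner reached 303 bp upstream and 1045.5 bp downstream (n = 52), and those with a wide partner 562.5 and 807 bp (n = 156). In lysine the same classes reached 579 and 786 bp (n = 24) and 655 and 836 bp (n = 150).

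**Figure D5:**
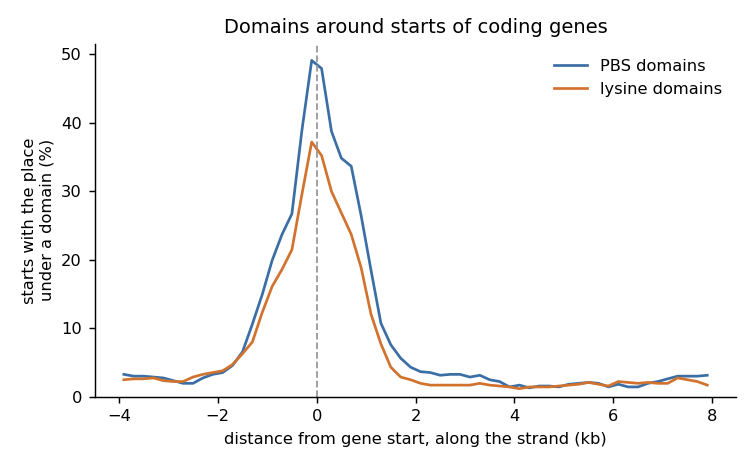
Share of 764 gene starts (vertical axis, percent) whose position at the given distance along the strand (horizontal axis, kb) lies under a domain, for PBS and lysine. Both lines are highest at the start, and the PBS line falls from 47.9% at 100 bp downstream to 3.66% at 2100 bp.

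The letters around these starts were those of CpG-rich promoters. In the 300 bases from 250 before to 50 after the start, the median number of CG was 26 (quartiles 19 and 33) over 739 starts under PBS domains and 25.5 (18 and 32.75) over 566 under lysine domains. It was 24 under shorter peaks of either list, 7 (3 and 19) over starts under no peak and 13 over all 21263 coding promoters. The letters CCAAT, the core of the NF-Y box, stood on either strand in 42.6% of promoters under PBS domains and 44.9% under lysine domains, 50.01% and 50.7% under shorter peaks, and 38.2% of all. TATAAA stood in 7.58% and 7.77% under domains, 5.36% and 4.94% under shorter peaks and 12.6% of all. GGGGCGGGG, a GC box, stood in 25.7% and 23.7% under domains, 23.5% and 24.3% under shorter peaks and 15.4% of all. The cAMP response element TGACGTCA stood in 5.01% and 4.06% under domains, 5.15% and 5.59% under shorter peaks and 2.23% of all. GAGGAAGT, a match of the PU.1 site, stood in 4.47% and 4.06%, 2.96% and 3.04%, and 3.13% of all. TGANTCA, the AP-1 site, stood in 3.79% and 4.42%, 4.16% and 4.05%, and 6.99% of all. All motifs were searched on both strands, and matches may overlap one another. Where only 1 list had a domain and the other no peak, CCAAT was at 28.7% (195 starts, PBS) and 29.0% (107 starts, lysine), against 47.9% where both had a domain (284 starts). A match is a description of letters and not a bound site.

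By gene, 1027 coding genes (4.69% of 21900) overlapped a PBS domain and 753 (3.44%) a lysine domain, while any peak overlapped 34% and 31.4%. Both lists had a domain on 398 (1.82%), which is 38.8% of the PBS genes and 52.9% of the lysine genes. Of the 629 genes with a domain in PBS alone, 499 still had a shorter lysine peak and 130 had none. Of the 355 with one in lysine alone, 296 had a shorter PBS peak and 59 had none. Most domain genes had a single domain: 26 genes had 2 or more in PBS and 13 in lysine. Cflar, which encodes the caspase-8 inhibitor c-FLIP, had 3 in both lists, with widths of 1345, 2573 and 1189 bp in PBS and 1081, 2607 and 1471 bp in lysine. Sdccag8 had 3 in PBS (1345, 1818 and 1800 bp) and 1 in lysine (1956 bp). Kdm6b had 2 in each (3269 and 1586 bp, 3297 and 1875 bp), as had Mnt, a repressor that pairs with Max (2961 and 1470 bp, 2726 and 1395 bp), Bbc3, which encodes the pro-apoptotic protein Puma (1904 and 1452 bp, 1491 and 2451 bp), and the corepressor gene Sin3a (1945 and 1314 bp, 1777 and 1213 bp). Il3ra had 2 in PBS and 1 in lysine. Genes with a domain had a median length of 28853 bp in PBS and 27140 bp in lysine. Genes with shorter peaks alone were nearly as long, with 25753 bp in either list, against 17146 bp for all coding genes. A longer gene has more room to be overlapped, and the part of this was not tested.

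Immediate early and stress-induced genes, which are switched on within minutes of a signal, were under domains in both lists. Of 30 such genes 15 (50%) had a PBS domain and 7 (23.3%) a lysine domain, beside 4.69% and 3.44% of all coding genes. Both lists had a domain on 6 of the 30. A peak of any width went the other way, on 22 of the 30 in PBS and 25 in lysine, beside 34% and 31.4% of all coding genes. In 12 the length of the gene under domains was shorter in lysine and in 4 longer, where over all coding genes with a domain in either list it was shorter in 856 and longer in 522. The AP-1 gene Fosl2 had a PBS peak of 2341 bp and a lysine peak of 287 bp, Egr2 2191 and 917 bp, Jund 2395 and 747 bp, and Junb 4467 and 1589 bp. Of the Junb domains 1840 bp in PBS and 195 bp in lysine lay over the gene. Ier2 had 4758 and 3408 bp. The 4 with more length in lysine were Klf6, Nr4a2, Zfp36l2 and Zfp36l1. Nr4a2 had a PBS domain of 1025 bp and a lysine domain of 1843 bp. Zfp36l2 had no PBS peak over the gene and a lysine domain of 1159 bp. Zfp36l1, an RNA-binding decay factor, had a domain 2964 bp wide in both lists. Jun had a domain of 1275 bp in PBS and 1652 bp in lysine, of which 122 and 106 bp lay over the gene. Of the Zfp36l1 domains 156 and 212 bp did, and of the Zfp36l2 domain 283 bp. PBS had more members with a domain than lysine under all alternatives run, from 7 against 3 to 16 against 11. Some of these could not change the counts: joining gaps of at most 500 bp, asking the other list to cover 50% of a domain, and keeping domains over genes.

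Splicing factor genes mostly had domains in both lists where they had one. Of 28, 15 (53.6%) had a PBS and 11 (39.3%) a lysine domain, beside 4.69% and 3.44% of all coding genes. Of the 16 with a domain in either list 10 had both, beside 398 of 1382 over all coding genes. Hnrnpl had 2725 bp in PBS and 2656 bp in lysine, Hnrnpu 1667 and 1693 bp, Hnrnpa2b1 1640 and 1855 bp, Hnrnpdl 1423 and 1788 bp, and the helicase gene Ddx5 1181 and 1797 bp. Mbnl2 had a PBS domain of 1958 bp and lysine peaks of 374 and 406 bp. With the same number of domains in both lists the counts were 10 and 11, the other order. Of 30 other chromatin regulators 10 and 7 had a domain (33.3% and 23.3%), and 7 and 7 with equal numbers of peaks, or of domains. Kdm6b, Kansl1 and Brd2 (1987 bp in PBS and 1702 bp in lysine) had the most length under domains. Of 23 genes of H3K79 methylation and elongation 3 and 2 had one, among them Aff1 (1761 bp in PBS against 1430 bp in lysine) and Ell (1927 and 1904 bp, over 97 and 103 bp of the gene). Dot1l had short peaks alone, of 436 and 310 bp in PBS and 500 and 303 bp in lysine.

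Genes of dendritic cell identity and antigen presentation had a domain in 9 of 30 cases in PBS (30%) and 4 in lysine (13.3%), 3 in both. Over all coding genes it was 4.69% and 3.44%. Length under domains was shorter in lysine in 8 of the 30 and longer in 2 (856 and 522 over all coding genes with a domain). Besides Il3ra, H2-DMa, a chaperone of MHC class II that overlaps Brd2, had the domain named for Brd2. Csf2ra, the alpha chain of the GM-CSF receptor, had 1459 bp in PBS and 1512 bp in lysine. H2-Ab1, H2-Eb1 (1325 bp, over 137 bp of the gene) and the peptide-loading gene Tapbp (1515 bp) had PBS domains and no lysine peak over the gene. Lysine peaks beside H2-Eb1 or Tapbp are not counted here. The costimulatory ligand Cd86 had a PBS domain of 1576 bp and lysine peaks of 586 and 495 bp, and Marchf1, a ubiquitin ligase of MHC class II, 2 PBS domains of 1287 and 1446 bp and a lysine peak of 689 bp. The invariant chain gene Cd74 went the other way, with a lysine domain of 1613 bp and a PBS peak of 900 bp. PBS had more of them under all alternatives run, from 2 against 0 to 12 against 4, though the alternatives named above could not change these counts either. The defining genes Flt3, Zbtb46 and Itgax had no domain, and peaks of 442, 310, 299 and 636 bp in PBS.

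Haematopoietic transcription factors had a domain in 10 of 28 cases in PBS (35.7%) and 5 in lysine (17.9%), beside 4.69% and 3.44% of all coding genes. Both lists had one in 3 cases, and the counts were 2 and 2 where −log10 q had to reach 5. Stat3 had 1917 bp in PBS against 1903 bp in lysine, and Nfe2l2, the oxidative stress factor Nrf2, 2373 and 1908 bp. Fli1 had 2 PBS domains (1625 and 1411 bp) and 1 in lysine (1442 bp). The neighbours Stat5a and Stat5b shared 1 PBS domain of 1630 bp, over 138 bp of Stat5b, so it counts for both. Length under domains was shorter in lysine in 10 and longer in 2. These 2 were Zmiz1 and Mef2a, with lysine domains of 2466 and 1104 bp and only shorter PBS peaks. Runx1 had PBS domains of 2295 and 1044 bp and no lysine domain, and Cebpb a PBS domain of 1813 bp and no lysine peak over the gene. NF-kB and Toll-like receptor genes were even, with 10 of 31 in each list (32.3%) and 5 in both. Length under domains was longer in lysine in 9 and shorter in 6, and with the same number of domains the counts were 7 and 10. Besides Cflar, Irak2 had 1340 bp in PBS against 1553 bp in lysine, and Nfkbib 1611 and 1394 bp. Nfkb2 (671 bp in PBS and 1499 bp in lysine), Nfkbia (711 and 1186 bp), Tlr6 (669 and 1701 bp) and Traf6 (655 and 1256 bp) crossed 1000 bp in lysine. Rel (1862 bp in PBS), Tlr13 (1413 bp) and Rela (1438 bp in PBS and 490 bp in lysine) did so in PBS.

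Of 19 genes that carry or break down lysine and related amino acids, 3 (15.8%) had a PBS and 4 (21.1%) a lysine domain. Over all coding genes it was 4.69% and 3.44%, and 1 of the 19 had both. Slc7a5, the large neutral amino acid transporter, had 1489 bp in PBS and 1548 bp in lysine, while its partner Slc3a2 had 1283 bp in PBS and peaks of 421 and 376 bp in lysine. Slc43a2 had 521 and 1935 bp and Slc38a2 455 and 1033 bp. The cationic amino acid transporter Slc7a6 had no PBS peak over the gene and 1198 bp in lysine. Slc7a11, the cystine transporter, had a PBS domain of 1123 bp. Where −log10 q had to reach 2 the counts were 3 and 3, and at a fold of at least 4 they were 3 and 2, the other order. Of 97 ribosomal protein genes, which are short and highly transcribed, 65 had a PBS peak, 3 a PBS domain and 3 a lysine domain, none in both, which is 3.09% in each list beside 4.69% and 3.44% of all coding genes. Of 15 nuclear and snoRNA host non-coding RNAs 4 (26.7%) had a PBS and 2 (13.3%) a lysine domain. Among them were Malat1 and Dleu2 (1751 bp in PBS and 1400 bp in lysine). The share over all non-coding genes was not counted, so these have no matching background. The PBS domain counted for Neat1 lay over 4 bp of the gene, and that for Snhg8 over 143 bp.

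Among markers of other cells, only the macrophage and monocyte list had domains. Of its 14 genes, Cd68 had a PBS domain (1890 bp, over 52 bp of the gene) and Csf1r a lysine domain (1160 bp). That is 7.14% in each peak list, from 1 gene each, and above the 4.69% and 3.44% of all coding genes. A PBS peak of any width lay on 8 of the 14 and a lysine peak on 4, beside 34% and 31.4% of all coding genes. The 7 lists of neutrophil, mast cell and basophil, T and NK, B, erythroid and megakaryocyte, stromal and endothelial, and neuronal, hepatic and muscle genes, 66 genes in all, had 0 domains in both lists. Joining peaks over gaps of up to 2000 bp gave 1 in PBS. Of these genes 5 had a shorter PBS peak and 4 a shorter lysine peak, and the B cell, erythroid, stromal and neuronal lists had none. All gene lists were chosen with earlier results of these data known, so their counts are descriptions and show nothing particular to a list.

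Across chromosomes the lysine to PBS ratio of domain numbers was 0.708 in all and lowest on chromosome 17, with 69 PBS and 28 lysine domains (0.406). On that chromosome lysine domains were 28.9% of both (interval 20.1 to 39.0), against 41.4% (39.3 to 43.6) over all. Peaks of any width on chromosome 17 numbered 551 and 482, a ratio of 0.875, above the 0.822 over all, so the lower ratio was that of domains. The ratio was 0.4 where −log10 q reached 2, 0.5 where it reached 5, where the interval of 18.0 to 51.8% holds the overall share of 39.4% and chromosome 14 was lower (0.267), and 0.483 with equal numbers of peaks. Chromosome 17 was singled out after its values were seen. It carries the MHC, where H2-Ab1, H2-Eb1 (over 137 bp of the gene) and Tapbp had domains in PBS alone, and H2-DMa and Brd2 in both. The highest ratio was 0.938 on chromosome 1, with 64 and 60. The X had 6 PBS and 4 lysine domains, 0.508% and 0.479% of all, and 0.847% and 0.826% of all peaks, while it carries 4.41% of coding genes. A few domains lay where reads are hard to place: 5 and 5 on unplaced scaffolds, 3 and 1 on the mitochondrial genome, and 3 and 4 on chromosome 9 before 3.1 Mb, besides the Rn18s-rs5 locus on chromosome 17.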

How the data were processed

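Per the labels' protocols, BMDCs were fixed with formaldehyde and the ChIP DNA read from both ends. MACS2 2.1.2 and Bowtie2 2.3.4.1 appear in the submitters' processing notes with the build GRCm38, as do Trimmomatic 0.38, cutadapt 1.18 and Picard, with no settings. No source used here gives the calling thresholds or says how the inputs were used. The authors deposited 1 broad and 1 gapped list per H3K79me2 sample, with fold enrichment (a linear ratio to local background), −log10 p and −log10 q, and a score of 10 times −log10 q. Blocks of 1 bp were left out. No read counts are given, so the depth is unknown.

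Partners, genes (RefSeq, GRCm38.p6, at least 1 bp) and gene starts were found by position with Python 3.11.15, numpy 2.4.6, scipy 1.17.1 and pandas 2.3.3, and figures drawn with matplotlib 3.10.9. Partner counts were checked against bedtools 2.31.1, with 0 differences, and the classes tested on simulated data. Named domains are, per list, the 10 widest, the 5 of highest −log10 q, the 5 widest of each class, the 3 nearest each side of the threshold, and the 5 pairs of largest difference in each direction. Named genes are the 5 with the most domains per list and the 3 of each gene list with the most length under domains, with further list members named after their values were seen. The members and the 18 gene lists were chosen with earlier results of these data known. All 411 gene list entries matched a RefSeq symbol. The inputs were left out, and 14 alternatives were run, 4 of them chosen after seeing the data. Some genes that these rules name are not reported here.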

Additional observations from a re-analysis of the deposited data

How the results depend on the processing

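PBS had more domains than lysine under every alternative that changed the number of domains and was not built to equalise it, and 36 of the main values moved and 49 did not. Domains of 1500 bp or more numbered 420 and 291 (lysine minus PBS -129), with a wide partner in 30.0% of PBS and 43.3% of lysine domains and none in 10.48% and 6.53%. Domains of 2000 bp or more numbered 109 and 77 (-32), with 29.4% and 41.6% wide and 7.34% and 2.6% none. At a −log10 q of at least 2 the PBS share without a partner was 23.5%. At 5 the numbers were 407 and 265 (-142), with 30.0% and 46.0% wide and 33.7% and 17.0% none. At a fold of at least 4, 27.5% and 13.8% had none. With the same number of peaks, the strongest of each list, the difference was -138, 41.4% and 48.1% were wide and 13.7% and 18.6% had none, so the order of the shares without a partner turned. When the other list had to cover at least 50% of the domain, 55.6% and 41.4% had none. The cause of these moves was not tested, except that a stricter filter leaves fewer partners by construction.

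Of the alternatives chosen after seeing the data, the same number of domains gave 41.6% wide and 18.0% none in PBS. Narrow blocks summing to 1000 bp or more numbered 274 and 202 (-72). Joining gaps of at most 500 bp changed nothing, since no gap is that small. No paired analysis was possible because each condition has 1 library. Without read counts or replicates, differences in depth or ChIP yield cannot be told apart from those of the treatment.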
